A study of Mus musculus with 6 samples.

Results

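Hba-a1, Hba-a2, Hbb-bs, Hbb-bt, Slc4a1, Alas2 and Klf1 are 7 genes of the red cell lineage, out of 25690 gene symbols to which the estimated counts of the series were summed. They were chosen from a list of globin, heme and erythroid genes with their values in these same libraries known, so the difference between genotypes in the 7 genes is given as a description and was not tested. The series holds bulk RNA-seq libraries of immature CD27SP NK cells, sorted from the BM as NK1.1+ CD27+ CD11b- cells that lack CD3. There were 3 libraries from Ncr1cre Myc wt/wt mice and 3 from Ncr1cre Myc fl/fl mice, both numbered 1, 2 and 4 in the labels, and the comparison asked how the RNA of these cells differs when Myc is lost. Both genotypes carried Ncr1cre, a Cre recombinase under the control of the gene for NKp46, which NK cells and some other innate lymphoid cells express. In the fl/fl mice this Cre deletes the loxP-flanked Myc, whereas the wt/wt mice kept 2 intact copies of it. The mice were sex- and age-matched, were on a C57BL/6 background and received no treatment. Nothing in these sources says how many mice were pooled for a library, so the spread between libraries may be technical in part.

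Red cells are filled with adult hemoglobin, a tetramer of alpha chains, encoded in the mouse by the near-identical genes Hba-a1 and Hba-a2, and beta chains, encoded in C57BL/6 mice by Hbb-bs and Hbb-bt. Alas2 makes the erythroid form of 5-aminolevulinate synthase, the first and rate-limiting enzyme of heme synthesis, Slc4a1 encodes band 3, the anion exchanger of the red cell membrane, and Klf1 is the transcription factor that binds CACCC boxes in globin promoters. None of these is known as a product of NK cells, and globin RNA is a common trace in preparations of BM, where red cells are formed. In bulk libraries, fewer cells of a type and less RNA per cell cannot be told apart.

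The promoters are shown because the 4 globin genes followed each other closely from library to library. Of the 7 genes, 6 matched an entry of the RefSeq promoter table (build GRCm38.p6). Each stretch begins 250 bases before the RefSeq start and is cut where a coding transcript of GENCODE M21 begins, and all read 5′ to 3′ on the strand of the gene. Hba-a2 lies at chr11:32296242-32296488 on the plus strand, Hbb-bs at chr7:103828097-103828178 and Hbb-bt at chr7:103813997-103814173 on the minus strand, Alas2 at chrX:150547167-150547374 on the plus strand, and Klf1 at chr8:84901732-84901927 on the plus strand. Capitals mark GATA motifs, the letters AGATAA with T also allowed as the first letter and G as the last, together with the CACCC box, the CCAAT box and the TATA box. The TATA box was searched as ATATAA, and each motif was searched on both strands.
Hba-a2: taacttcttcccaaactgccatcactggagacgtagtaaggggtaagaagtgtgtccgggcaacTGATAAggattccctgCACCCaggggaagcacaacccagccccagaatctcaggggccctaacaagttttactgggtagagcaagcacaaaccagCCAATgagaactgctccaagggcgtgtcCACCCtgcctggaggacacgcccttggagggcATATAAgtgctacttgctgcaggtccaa
Hbb-bs: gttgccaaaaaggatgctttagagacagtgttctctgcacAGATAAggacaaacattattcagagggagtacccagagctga
Hbb-bt: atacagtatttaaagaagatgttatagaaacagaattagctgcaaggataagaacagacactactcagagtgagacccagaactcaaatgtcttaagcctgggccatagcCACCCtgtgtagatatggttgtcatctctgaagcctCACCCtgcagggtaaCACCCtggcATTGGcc
Alas2: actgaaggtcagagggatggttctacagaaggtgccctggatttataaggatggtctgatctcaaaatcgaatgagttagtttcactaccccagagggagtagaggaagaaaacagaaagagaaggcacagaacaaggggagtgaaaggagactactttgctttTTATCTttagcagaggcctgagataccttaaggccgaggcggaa
Klf1: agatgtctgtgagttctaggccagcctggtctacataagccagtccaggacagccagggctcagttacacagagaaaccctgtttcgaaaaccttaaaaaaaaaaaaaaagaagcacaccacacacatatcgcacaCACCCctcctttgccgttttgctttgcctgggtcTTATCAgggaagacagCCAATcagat

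Over the full 250 bases, a GATA motif was found in 5 of the 6 promoters, against 26.6% of 32817 mouse promoters of the same length, and Hbb-bt was the one without it. A CACCC box stood in 6 of 6, a motif that 52% of all promoters hold. A CCAAT box was present in 5 of 6, against 33.8% of all, and ATATAA in the 4 globin promoters, against 9.1% of all. In Hba-a2 the 4 kinds of motif followed each other towards the start, with the GATA motif at -186 to -181, the CCAAT box at -91 to -87, the nearer CACCC box at -63 to -59 and ATATAA at -31 to -26, counted back from the start. No motif overlapped another in these promoters. CACGTG, the E-box letters that Myc and Max bind, was in 0 of the 6 windows and in 6.02% of all promoters, which says only that these letters are not in these windows. The Hba-a1 and Hba-a2 promoters were 97.6% identical over their alignment and those of Hbb-bs and Hbb-bt 69.3%.

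The copies are also alike in their mRNA. Of all stretches of 100 bases, the length of a read, 74.5% of the Hba-a2 transcript and 56.5% of the Hba-a1 transcript occurred in both genes. The shares were 62.6% for Hbb-bs and 54.8% for Hbb-bt, again within the pair. No stretch of Slc4a1, Alas2 or Klf1 occurred in another gene. The split between the 2 alpha genes or the 2 beta genes is thus an estimate by the authors' quantification, and the sums of each pair are given as well.

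Myc, the targeted gene, measured 201, 183 and 164 CPM (counts scaled to a common library size and normalized by TMM) in the wt/wt libraries with replicate numbers 1, 2 and 4, and 61.5, 64.6 and 76.5 CPM in the fl/fl libraries, a log2 fold change of -1.44 (SE 0.16, adjusted p = 0.00189). The libraries held 54471426 to 64866918 counts matched to genes, except wt/wt replicate 1 with 8087537, so a count of 3 stood for 0.39 CPM there and for 0.0458 to 0.0549 CPM elsewhere. The NK cell markers summed to 12240 to 13470 CPM in wt/wt and 14350 to 15780 CPM in fl/fl, without overlap.

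All 4 adult globin genes were higher in every fl/fl library than in every wt/wt library, as were 16.2% of all 15474 genes tested. Hba-a2, the more abundant alpha gene, measured 19.2, 15.1 and 102 CPM in wt/wt replicates 1, 2 and 4, and 392, 441 and 194 CPM in fl/fl replicates 1, 2 and 4. Replicate 4 was thus the highest of the wt/wt libraries and the lowest of the fl/fl libraries, and the groups did not overlap. Hba-a1 followed the same course at a lower level, with 10.7, 9.17 and 56.1 CPM against 213, 217 and 105 CPM. Hbb-bs, the more abundant beta gene, measured 22.9, 13.3 and 82.9 CPM against 326, 347 and 155 CPM. Its neighbour Hbb-bt gave 8.56, 4.34 and 33.5 CPM against 103, 114 and 60.7 CPM. For each of the 4 genes the lowest fl/fl library exceeded the highest wt/wt library, wt/wt replicate 4, by 1.81 to 1.89 times on the CPM scale.

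Summed over the 4 genes, globin RNA made up 126 CPM ± 129 (SD, n = 3) in wt/wt and 890 CPM ± 327 (SD, n = 3) in fl/fl, a ratio of means of 7.06 (17.3 without wt/wt replicate 4). On the log2(CPM + 0.5) scale the means of the sum differed by 3.23, with an SD of 1.43 in wt/wt and 0.61 in fl/fl. As a share of all counts, globins took 0.00584% (95% Wilson interval 0.00533% to 0.00639%), 0.00429% (0.00412% to 0.00446%) and 0.0278% (0.0274% to 0.0282%) in wt/wt replicates 1, 2 and 4. The shares in the fl/fl libraries were 0.105% (0.104% to 0.106%), 0.112% (0.111% to 0.113%) and 0.0512% (0.0506% to 0.0518%). These intervals cover counting error only, and they were narrow beside the spread between libraries of 1 genotype. The difference of the sum depended on wt/wt replicate 4: without this library it was 4.04 on the log2 scale, and without any other single library it was between 2.69 and 3.59.

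**Figure D1:**
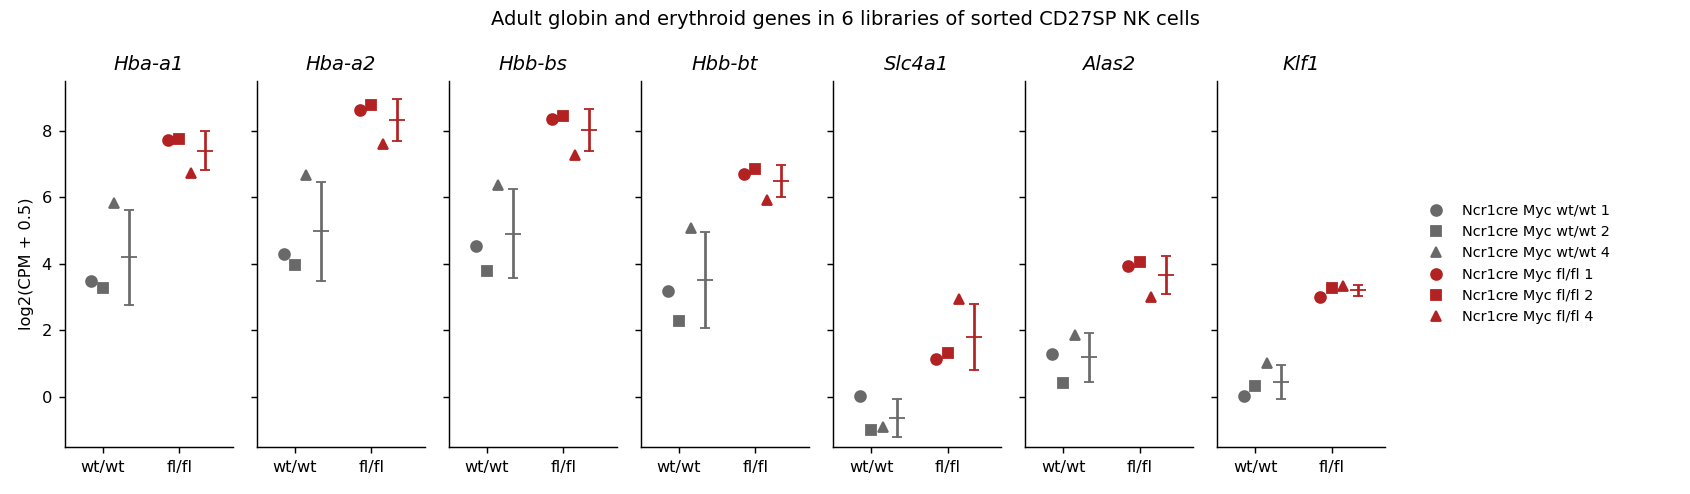
Level of each of the 7 genes in the 6 libraries, as log2(CPM + 0.5). Points are single libraries (circle, replicate 1, square, replicate 2, triangle, replicate 4), and the bars beside them are the mean ± SD of the 3 libraries of a genotype. For each gene all fl/fl points lie above all wt/wt points. The triangles of the globin genes and Alas2 are the highest of wt/wt and the lowest of fl/fl, whereas for Slc4a1 the fl/fl triangle is the highest.

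The makeup of the globin RNA was steadier than its amount. By TPM, which scales counts by transcript length and so allows a comparison between genes, the alpha pair stood at 1.73 to 1.79 times the beta pair in the fl/fl libraries. The alpha to beta ratio was 1.26, 1.69 and 1.71 in wt/wt replicates 1, 2 and 4, the lowest value falling in the shallow library, which held 472 globin counts against 2361 to 61171 in the others. Hba-a2 contributed 72.4% to 74.4% of alpha TPM in fl/fl and 65.4% to 72.3% in wt/wt. Hbb-bs contributed 75.7% to 79% of beta TPM in fl/fl and 74.8% to 78.5% in wt/wt. The share of Hbb-bs was lowest in the replicates 4, at 74.8% in wt/wt and 75.7% in fl/fl, next to 75.9% in wt/wt replicate 1.

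Alas2, the heme synthesis gene of erythroid cells, had the pattern of the globins at a far lower level. It measured 1.93, 0.843 and 3.15 CPM in wt/wt replicates 1, 2 and 4, and 14.8, 16.2 and 7.60 CPM in the fl/fl libraries. The ratio of means was 6.53, and the difference on the log2(CPM + 0.5) scale 2.48. In the shallow wt/wt replicate 1 its value rested on 14.9 estimated counts. Within the fl/fl genotype, globin TPM stood at 280 to 312 times Alas2 TPM, whereas in wt/wt this ratio ranged from 128 to 380.

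Klf1, the erythroid activator of the globin genes, measured 0.520, 0.762 and 1.53 CPM in wt/wt replicates 1, 2 and 4 against 7.54, 9.27 and 9.53 CPM in fl/fl, with means of 0.936 ± 0.526 and 8.78 ± 1.08 (SD, n = 3). Its fl/fl libraries lay close together, with no fall in replicate 4. Globin TPM per Klf1 TPM was therefore lower in fl/fl replicate 4, at 161, than in fl/fl replicates 1 and 2, at 404 and 360. The same ratio reached 366, 161 and 528 in wt/wt replicates 1, 2 and 4, so the ranges of the genotypes overlapped.

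Slc4a1, the gene of band 3, spans chr11:102348824-102366203 on the minus strand (GRCm38, GENCODE M21). It was at the limit of detection in wt/wt, with 4, 0 and 2 counts in replicates 1, 2 and 4, or 0.520, 0 and 0.0305 CPM. The fl/fl libraries held 101, 109 and 428 counts, or 1.72, 1.99 and 7.17 CPM. In contrast to the globins, the highest library was fl/fl replicate 4, at 3.86 times the mean of replicates 1 and 2, while wt/wt replicate 4 gave 2 counts although its globins were the highest of wt/wt. Pooling the libraries of a genotype gave 638 counts against 6, a ratio of 79.6 once scaled by library size (exact 95% interval 36.4 to 218, for counting error only). Of the 638 counts, 428 came from fl/fl replicate 4, and without this library the pooled ratio was 40.0 (18.1 to 110). It was 45.0 (20.5 to 123) without wt/wt replicate 2, and 225 (61.9 to 1859) without the shallow wt/wt replicate 1, which left 2 counts in wt/wt. With each library weighted alike the ratio of mean CPM was 19.8, of which the wt/wt mean rested mostly on the 4 counts of replicate 1. This ratio was 238 without wt/wt replicate 1, 13.2 without wt/wt replicate 2 and 10.1 without fl/fl replicate 4, so its size depended on single libraries. These libraries were left out after the data were seen. The difference on the log2(CPM + 0.5) scale was 2.43, and it ran from 1.54 by TPM to 3.91 with a pseudocount of 0.1 CPM.

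Over the 7 genes the median difference on the log2(CPM + 0.5) scale was 2.98, beside 0.02 over all 15474 genes tested. All 7 passed the filter on low counts, and in 7 of 7 every fl/fl library was above every wt/wt library, as was the case for 16.2% of all genes tested. The members were chosen with this contrast known, so nothing is read from that count. Correlations of log2 CPM deviations from the genotype means, given as a description over 6 libraries that share 2 genotype means, were 0.97 to 1.00 within the globins, 0.85 to 0.94 between globins and Alas2 and 0.63 to 0.74 between globins and Klf1, which had 4 counts in wt/wt replicate 1. None is given for Slc4a1, whose wt/wt values rest on 4, 0 and 2 counts.

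In length-scaled units the order of the 4 globin genes was the same in all 6 libraries, with Hba-a2 first, then Hbb-bs, Hba-a1 and Hbb-bt. Hba-a2 averaged 1465 TPM ± 558 (SD, n = 3) in fl/fl, which placed it 51st, 52nd and 152nd among all symbols in replicates 1, 2 and 4, and 180 TPM ± 200 (SD, n = 3) in wt/wt, with ranks of 2643, 2919 and 404. The step from Hba-a2 to Hbb-bs was 1.61 to 1.69 times within each fl/fl library and 1.08 to 1.65 times in wt/wt, although across the fl/fl libraries the ranges of Hba-a2 and Hbb-bs overlapped, as did those of Hbb-bs and Hba-a1. Hba-a1 (315 to 650 TPM) and Hbb-bt (161 to 301 TPM) did not overlap in fl/fl. Hbb-bt exceeded Alas2 by 23.8 to 24.9 times in fl/fl and by 10.2 to 35.3 times in wt/wt. Alas2 and Klf1 did not differ beyond their spread, with 10.3 TPM ± 3.35 and 10.4 TPM ± 1.10 (SD, n = 3) in fl/fl, and Alas2 was the higher of them in 5 of 6 libraries. Slc4a1 was the lowest in all 6, at 1.25 TPM ± 0.965 in fl/fl and 0.0526 TPM ± 0.083 in wt/wt (SD, n = 3).

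**Figure D2:**
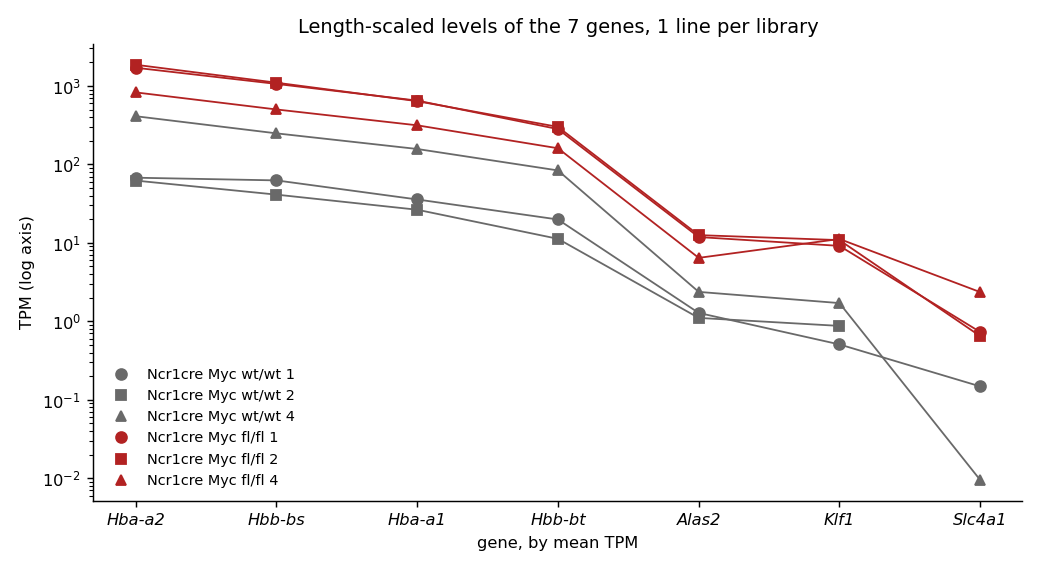
TPM of the 7 genes on a log axis, ordered by mean TPM, with 1 line per library (grey, Ncr1cre Myc wt/wt, red, Ncr1cre Myc fl/fl). The value of 0 for Slc4a1 in wt/wt replicate 2 has no place on a log axis and is left out. Lines are close to parallel over the globins and part at Klf1 and Slc4a1, where the line of fl/fl replicate 4 rises above those of fl/fl replicates 1 and 2.

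Other genes of the lineage were taken from 5 lists of 70 genes in all, of which 68 were in the files and 62 passed the filter. Between genotypes, 13 of the 62 rose in fl/fl and 0 fell by edgeR's quasi-likelihood test, at an adjusted p below 0.01 and a log2 fold change of at least 0.5 in size. At an unadjusted p below 0.05, 30 were higher and 4 lower, and DESeq2 called 1 gene lower, Prdx2, a red cell peroxiredoxin (log2 fold change -0.67, adjusted p = 0.0229 by edgeR), and limma-trend 0. At the adjusted threshold of edgeR's test, 1.28% of all 15474 genes tested rose (198 genes) and 0.872% fell (135 genes). No share of all genes is given for the unadjusted level, so nothing is read from the counts at that level. Every fl/fl library was above every wt/wt library for 33 of the 62 genes and below for 5, beside 16.2% and 15.1% of all genes tested. The median log2 fold change was 0.43 over the 62 genes and 0.01 over all genes tested. At the deposited effective lengths as offsets, 1 of the 62 genes, Car1, and 30 of all genes (24 higher, 6 lower) passed. Leaving out replicates 1 left 5 genes, of which Rhd, Lmo2 and Car1 were among the 13, leaving out replicates 2 left 3 genes, Ermap and Car1 among them, and leaving out replicates 4 left 11 genes, 10 of them among the 13.

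Embryonic and minor globin genes were absent or nearly so, and none of them passed the filter. Hba-x and Hbb-y, which are expressed in primitive red cells of the embryo, and Hbb-bh2 had 0 counts in every library. For Hbb-bh1, an embryonic beta-like gene, 0, 2 and 0 counts in wt/wt replicates 1, 2 and 4 faced 7, 5 and 0 in fl/fl. Hbq1b, a theta-like globin gene, gave 0, 0 and 1 counts against 4, 7 and 17, and its copy Hbq1a gave 0 counts apart from 6 in fl/fl replicate 1.

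In the list of red cell membrane and surface genes, 5 of 20 rose and 0 fell, with a median log2 fold change of 2.08. Rhd, which encodes a protein of the Rh complex, measured 0.130, 0.160 and 0.137 CPM in wt/wt and 2.20, 2.16 and 2.65 CPM in fl/fl, a log2 fold change of 4.00 (SE 0.48, adjusted p = 0.00263). Ermap, the erythroblast membrane-associated protein, rose by 2.73 on the log2 scale (SE 0.38, adjusted p = 0.00447), from 0.405, 0.852 and 1.17 CPM to 6.68, 4.07 and 6.98 CPM. Kel, which encodes the Kell blood group protease, had 0 counts in wt/wt replicates 1 and 2, so its fitted fold change depends on the prior count. It gave 11 counts in wt/wt replicate 4 and 120, 72 and 126 in fl/fl (adjusted p = 0.00777). The most abundant genes of the list, Epb41, Gypc and Xk, are not particular to red cells and gave log2 fold changes of 0.41, 0.21 and 0.31 (adjusted p = 0.148, 0.511 and 0.53).

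Among the transcription and Epo signalling genes, 5 of 14 rose and 0 fell (median log2 fold change 1.00). Gata1, the master regulator of erythroid genes, which megakaryocytes, mast cells and basophils also use, measured 1.30, 1.42 and 2.38 CPM in wt/wt and 8.76, 10 and 7.39 CPM in fl/fl, a log2 fold change of 2.35 (SE 0.33, adjusted p = 0.0045). Gfi1b, a repressor needed in red cells and megakaryocytes, rose by 2.52 (SE 0.33, adjusted p = 0.00348), with 0.650, 1.61 and 1.02 CPM against 6.23, 7.02 and 5.93 CPM. Tal1 gave 1, 1 and 12 counts in wt/wt and 122, 97 and 79 in fl/fl (log2 fold change 4.03, SE 0.70, adjusted p = 0.00958). With 1 replicate number left out, the log2 fold change of Tal1 ran from 3.16 to 5.52. Lmo2, its partner in a GATA1 complex, rose by 1.85, and Nfe2, a factor of the erythroid and megakaryocyte lineages, by 1.56 on the log2 scale (adjusted p = 0.00348 and 0.00426). Zbtb7a, Ldb1 and Zfpm1, the most abundant of the list, gave log2 fold changes of -0.18, 0.06 and 0.45 (adjusted p = 0.589, 0.857 and 0.164).

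For the enzyme and maturation genes, 3 of 15 rose and 0 fell (median log2 fold change 0.24). Car1, the carbonic anhydrase of red cells, rose from 2.73, 2.75 and 5.47 CPM to 34.3, 40.5 and 32.2 CPM (log2 fold change 3.32, SE 0.28, adjusted p = 0.000773), and it passed under all 14 other settings. Trim58, an E3 ligase of late erythroblasts, gave 1, 8 and 1 counts against 86, 128 and 50. Slc38a5, an amino acid transporter, gave 0, 9 and 13.9 counts against 75, 91.1 and 109.7. Their adjusted p were 0.00491 for Trim58 and 0.00786 for Slc38a5, and they passed under 7 and 8 of 13 other settings. With 1 replicate number left out neither passed, at adjusted p of 0.01 to 0.0282 for Trim58 and 0.0168 to 0.04 for Slc38a5. The other named genes that rose passed under 7 (Tal1) to 12 (Lmo2) of 13 or 14 other settings. Car2, Mkrn1 and Bnip3l, which were the most abundant, differed by -0.09, 0.07 and 0.14 on the log2 scale (adjusted p = 0.82, 0.839 and 0.654). Of the 13 heme synthesis genes other than Alas2, 0 passed by edgeR, DESeq2 or limma-trend, beside 1.28% higher and 0.872% lower over all genes tested, with log2 fold changes from -0.42 to 0.43 and a median of 0.09. At an unadjusted p below 0.05, a level for which no share of all genes is given, 2 of them were higher and 1 lower in edgeR's fit. Alad, Tmem14c and Urod, the most abundant of them, measured 78.1 to 102, 55.0 to 79.0 and 50.2 to 65.9 CPM over the 6 libraries. Alad and Urod are enzymes of heme synthesis in all cells, Tmem14c is a mitochondrial membrane protein needed for heme synthesis in erythroid cells, and Alas2 is largely restricted to erythroid cells.

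**Figure D3:**
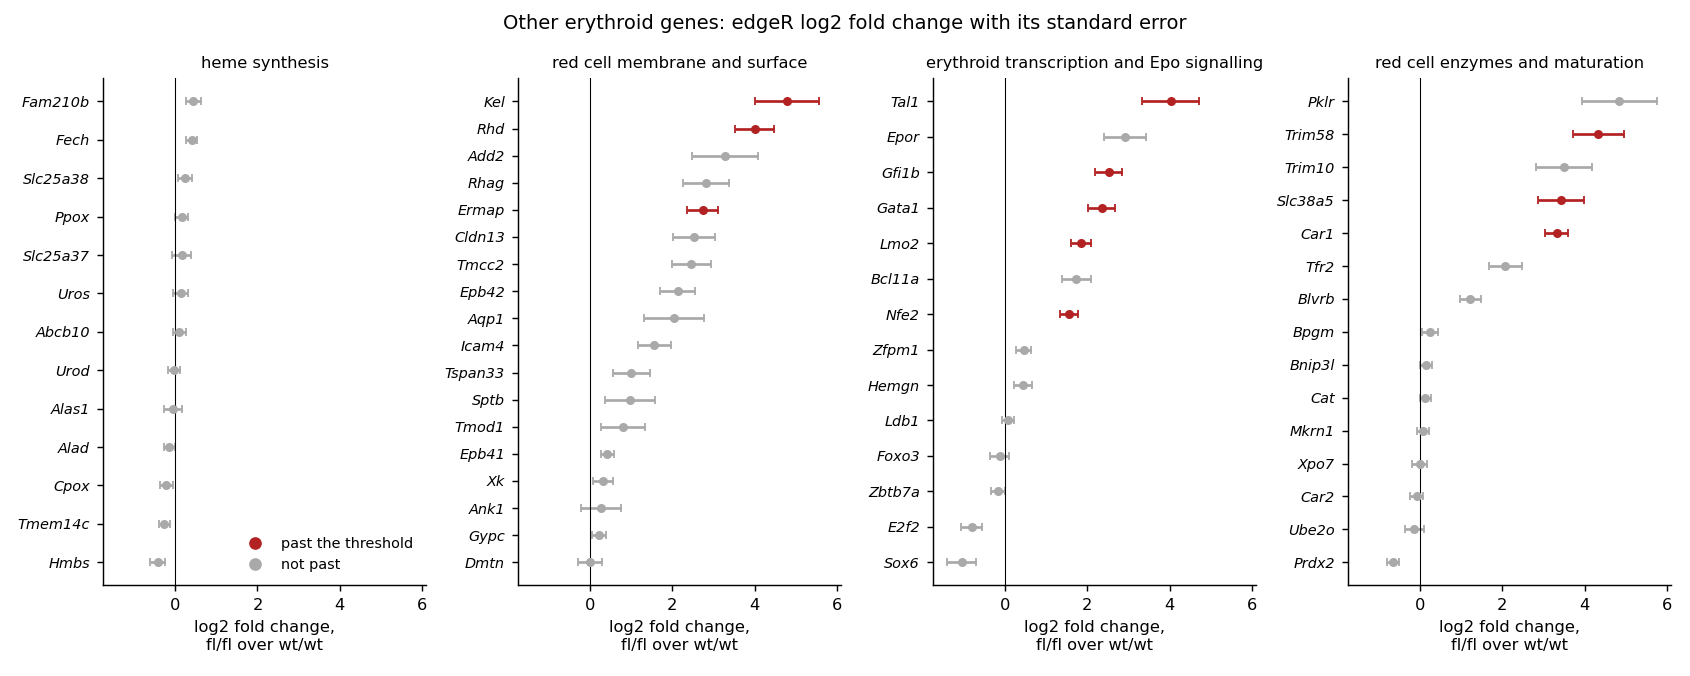
Log2 fold change (fl/fl over wt/wt) of 60 of the 62 tested genes of 4 lists, with the standard error implied by the F statistic of edgeR's test. Red points passed the threshold (adjusted p below 0.01 and a log2 fold change of at least 0.5 in size) and grey points did not. The heme synthesis genes lie between -0.42 and 0.43, and the 11 red points lie on the right in the other 3 lists.

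The fl/fl libraries also differed among themselves in these genes. All 5 membrane genes that rose were highest in fl/fl replicate 4, as Slc4a1 was, whereas all 5 transcription genes that rose were lowest there. In replicate 4, Rhd, Kel and Ermap reached 1.22, 1.26 and 1.30 times the mean of fl/fl replicates 1 and 2. The transcription genes stood at 0.687 to 0.895 times that mean. Over the whole membrane list replicate 4 was the highest of the fl/fl libraries for 14 of 20 genes and the lowest for 2, beside 34.5% and 34.2% of all genes tested. Over the whole transcription list it was the lowest for 9 of 14 genes and the highest for the other 5. These patterns were noticed in the data and were not tested.

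**Figure D4:**
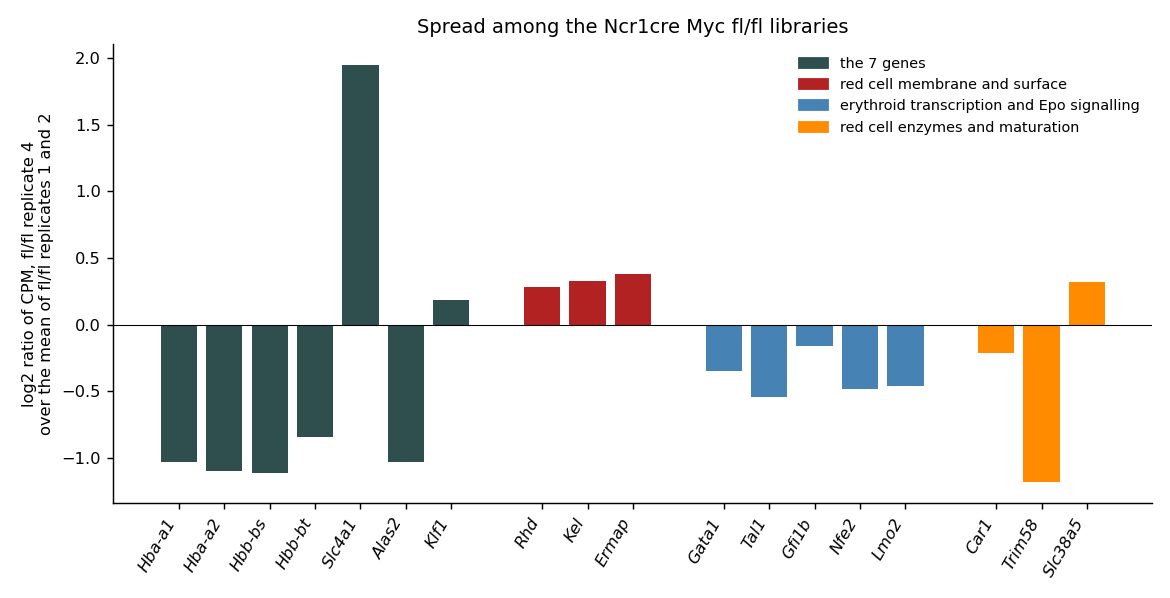
Log2 ratio of CPM in fl/fl replicate 4 to the mean of fl/fl replicates 1 and 2, for the 7 genes and for 11 of the 13 other erythroid genes that rose. Bars below 0 stand for genes that were lower in replicate 4, such as the globins, Alas2 and the transcription genes, and bars above 0 for genes that were higher, such as Slc4a1 and the membrane genes.

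Summed markers of 5 other cell types than NK cells were higher in every fl/fl library than in every wt/wt library, as the globins were, and the sums of the neutrophil, B cell and T cell lists overlapped between genotypes. Among single genes tested, 16.2% had every fl/fl library above every wt/wt library. The basophil and mast cell list summed to 12.3 to 15.8 CPM in wt/wt and 109.5 to 316.5 CPM in fl/fl, and 6 of its 6 genes rose, led by Prss34 and Mcpt8. Over all genes tested, 1.28% rose at the same threshold. The granulocyte-monocyte progenitor list, led by Mpo and Elane, summed to 82.4 to 125 CPM against 522 to 878 CPM, with 5 of 5 genes risen. For platelets and megakaryocytes, whose most abundant markers were Pf4 and Itga2b, the sums were 8.72 to 15.1 CPM against 22.2 to 70.3 CPM, and 1 of 6 genes rose. The neutrophil list (S100a8, S100a9) gave 3.64 to 15.8 CPM against 13.7 to 29.9 CPM with 1 of 6 tested genes risen, the monocyte list (Ccr2, Ly6c2) 1658 to 1865 CPM against 2085 to 2370 CPM with 4 of 5, and the plasmacytoid dendritic cell list (Irf8, Cox6a2) 288 to 347 CPM against 638 to 822 CPM with 2 of 5. Most of the monocyte sum was Ccr2, which did not pass (1417 to 1724 CPM against 1670 to 2019 CPM, adjusted p = 0.305). Most of the plasmacytoid dendritic cell sum was Irf8, which rose from 251 to 289 CPM to 585 to 764 CPM (adjusted p = 0.00189), while Cox6a2 gave 22.1 to 23.6 CPM against 11.9 to 21.1 CPM (adjusted p = 0.311). The B cell sums were 578 to 1500 CPM in wt/wt and 574 to 756 CPM in fl/fl, and the T cell sums 227 to 473 CPM and 237 to 317 CPM. Most of the B cell sum was Ighm (572 to 1496 CPM against 561 to 746 CPM, adjusted p = 0.561). Cd79b gave 3.25 to 6.73 CPM against 8.99 to 9.53 CPM, without overlap (adjusted p = 0.0898). B cell (Ighm, Cd79b) and T cell (Cd3g, Cd3d) lists had 0 of 5 tested genes past the threshold in each, and 0 of 9 NK cell genes, led by Nkg7 and Il2rb, passed, by edgeR, DESeq2 and limma-trend alike. At an unadjusted p below 0.05, 5 of 6 platelet and megakaryocyte genes and 6 of 6 neutrophil genes were higher. In these lists DESeq2 called 2 and 4 genes and limma-trend 0 and 0. At the same unadjusted level, 2 B cell genes were higher, 1 T cell gene was higher and 1 lower, and 1 NK cell gene was higher. No share of all genes is given for that level, so nothing is read from these unadjusted counts. No marker was at 0 in all 6 libraries. Their part in the result was not tested.

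The replicates 4 set these lists apart from each other. In fl/fl replicate 4 the globin sum was 0.479 times the mean of replicates 1 and 2, the basophil and mast cell sum 0.378 times and the platelet and megakaryocyte sum 0.354 times, while the granulocyte-monocyte progenitor sum was 1.63 times and the neutrophil sum 1.61 times. The NK cell, monocyte and B cell sums were also lowest of fl/fl there, at 0.929, 0.892 and 0.806 times, and the T cell and plasmacytoid dendritic cell sums highest, at 1.18 and 1.24 times. Within the neutrophil list Retnlg, the gene that rose, stood at 0.143 times, whereas Ngp stood at 6.18 times, and Ltf, which did not pass the filter, had 0, 8 and 221 counts in fl/fl replicates 1, 2 and 4. These 3 genes were named after their values were seen. In wt/wt replicate 4 the globin sum was 5.33 times the mean of replicates 1 and 2, the neutrophil sum 4.17 times and the T cell sum 2.02 times, and the basophil and mast cell sum was 1.07 times. Counts on mitochondrial genes made up 1.16% to 1.61% in wt/wt and 0.83% to 1.10% in fl/fl. No cause of the spread was tested.

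**Figure D5:**
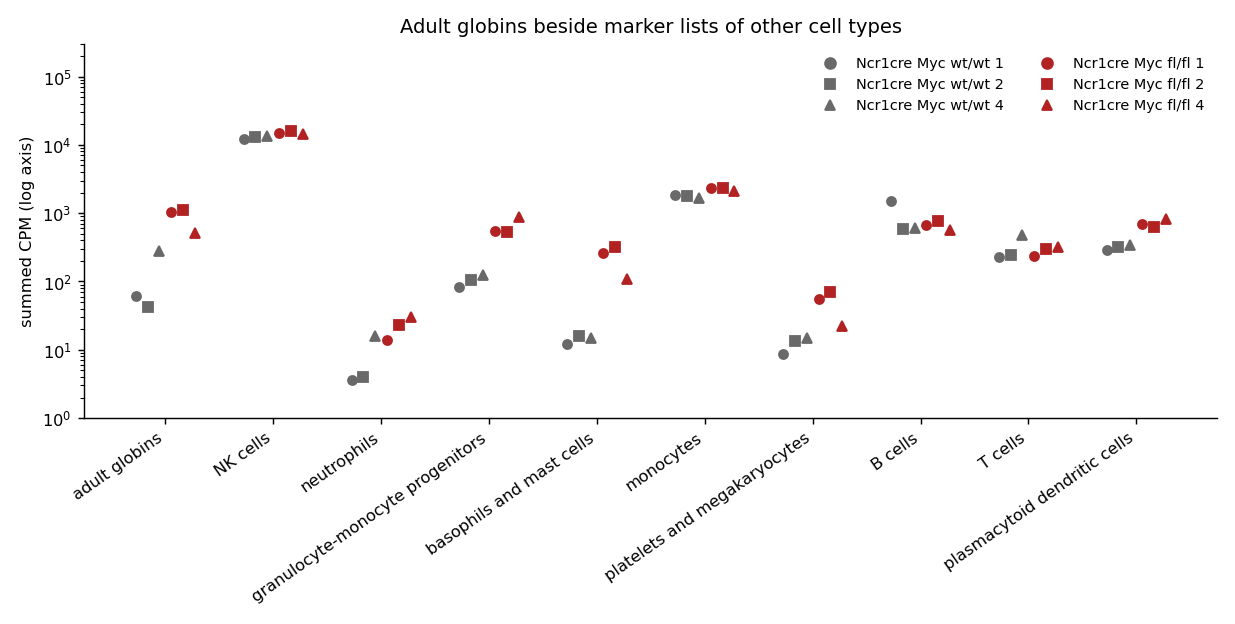
Summed CPM of the 4 adult globin genes and of 9 marker lists in each library, on a log axis (grey, Ncr1cre Myc wt/wt, red, Ncr1cre Myc fl/fl). NK cell markers stand at 12240 to 13470 CPM in wt/wt and at 14350 to 15780 CPM in fl/fl. The fl/fl triangle is the lowest red point for the globins and the basophil and mast cell, platelet and megakaryocyte, NK cell, monocyte and B cell lists, and the highest for the granulocyte-monocyte progenitor, neutrophil, T cell and plasmacytoid dendritic cell lists.

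Genes most like the members were sought among 12121 others with a mean of at least 1 CPM, by Pearson's r over the 6 libraries between log2(CPM + 0.5) and the mean centred profile of the 7 genes. Each member had the same weight in this profile, also Slc4a1, whose wt/wt values rest on 4, 0 and 2 counts. The 5 closest were Ypel5 (r = 0.991), Tbc1d8 (0.990), Rab3il1 (0.989), Csf2 (0.988) and Lyz2 (0.988). Lyz2, the lysozyme of myeloid cells, measured 4.55, 4.09 and 6.75 CPM in wt/wt and 21.0, 22.4 and 18.2 CPM in fl/fl. Ypel5 had 70.4 to 91.4 CPM against 109 to 129 CPM, and Csf2, the gene of GM-CSF, 7.30 to 11.3 CPM against 16.8 to 19.7 CPM. These r values describe 6 libraries that share 2 genotypes and their depth, and no p is given for them.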

How the data were processed

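The authors sorted the cells, prepared poly(A)-selected libraries with the SMART-Seq v4 kit and sequenced single reads. The deposited tables give, per transcript, the estimated count (not normalized), the TPM as the authors computed it, and the effective length. The columns have kallisto's names, whereas the methods and the submitters' processing notes name Salmon and GRCh38, although the transcript identifiers are of the mouse, and 100239 of 100583 of them matched GENCODE M21. Identifiers that did not match held 0.129% to 0.169% of counts. Total estimated counts were 8101219 to 64962491 per library. The smallest lies below and the other 5 lie well above the sequencing depth that the methods state, so an estimated count may not stand for 1 read as sequenced, and floors and intervals rest on the counts as deposited.

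Estimated counts were summed by gene symbol and rounded. filterByExpr kept 15474 genes. After TMM scaling, edgeR (4.0.16, in R 4.3.3) fitted genotype and replicate number to each of them and tested genotype by quasi-likelihood, the replicate block being included since the study describes its differential expression analysis as paired, although its methods name no pairing. Benjamini-Hochberg adjustment covered every gene tested. The standard error (SE) of a log2 fold change is derived, as its size divided by the square root of the test's F statistic. To pass the threshold, a gene needed an adjusted p under 0.01 together with a log2 fold change of 0.5 or more in size. Alternatives were DESeq2 1.42.0, limma-trend (limma 3.58.1), other scalings, filters and pseudocounts, and libraries left out. Members and lists were chosen with earlier results of these data known. The text names the 7 genes, Myc, the 3 most abundant genes and the genes past the threshold in each erythroid list (some genes are counted in the lists but are not reported by name here), the 5 genes most like the members and the 2 most abundant of each marker list. Prdx2 and the globin genes with 0 counts in every library were named after their values were seen. Ahsp and Hbb-bh0 had no transcript in the tables used here. The edgeR, DESeq2 and limma-trend fits were tried on simulated counts with known fold changes. Promoter sequences are from RefSeq (GRCm38.p6). Replicates of a genotype differed by more than sampling noise.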

Additional observations from a re-analysis of the deposited data

How the results depend on the processing

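Genes past the threshold numbered 333 in all and 13 among the erythroid lists. With DESeq2 they were 1193 and 24, with library size only 74 and 3, with effective length offsets 30 and 1, with low counts unfiltered 902 and 25, and at an adjusted p below 0.05 with no fold limit 1212 and 26. With at least 10 counts in every library, 298 and 4 passed, with 39 of the erythroid genes tested. With 1 replicate number left out, the counts ran from 59 to 276 and from 3 to 11. Without the shallow wt/wt replicate 1 and without the block, an alternative chosen after the data were seen, 243 and 11 passed. All erythroid genes past the threshold were higher in fl/fl, except 1 lower gene by DESeq2, with no filter and at the 0.05 limit. The difference of summed globins ran from 2.69 to 4.04 on the log2 scale and the median of the 7 genes from 2.56 to 3.77 with 1 library left out. Since the groups of each member do not overlap, no library left out could turn the sign of its difference. Of the genes that did not pass, some changed sign with 1 replicate number left out: Urod ran from -0.11 to 0.075, Ldb1 from -0.084 to 0.20 (-0.13 without wt/wt replicate 1 and the block), Zbtb7a from -0.33 to 0.053, Car2 from -0.33 to 0.066 and Mkrn1 from -0.012 to 0.12 on the log2 scale. Of the 13 erythroid genes, Car1 passed under 14 of 14 other settings. With library size only, Rhd, Lmo2 and Car1 passed. The causes were not tested.

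Pairing by replicate number was not visible in the data. Deviations of same-numbered libraries correlated at -0.01, -0.02 and 0.06, and 2 of 6 libraries correlated best with their own number. With 3 libraries per genotype, these values cannot settle whether the libraries were paired. Without the replicate block, 387 genes in all and 15 erythroid genes passed, 12 of them shared with the 13. Depth limits Slc4a1 and Klf1 in wt/wt replicate 1, where each had 4 counts.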

Other observations

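Transcript-level values of the members fell outside the comparisons. Of the Alas2 counts, the transcript ENSMUST00000112715 held 20.7%, 28.9% and 22.1% in fl/fl replicates 1, 2 and 4, and 0%, 0% and 4.63% in wt/wt replicates 1, 2 and 4, where Alas2 had 14.9, 47.6 and 206 counts in all. Of the Hba-a1 counts, the retained-intron transcript ENSMUST00000142555 held 50.4% (41.6 of 82.4) in wt/wt replicate 1, 0% in wt/wt replicates 2 and 4, and 0.335% to 0.571% in fl/fl. Both are estimates that split reads between overlapping transcripts.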
